A study of Mus musculus with 9 samples.

Results

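The comparison described here sets a mouse bladder that carried an MB49 tumour and received the lowest dose of alpha1-oleate, 1.7 mM, against a tumour-bearing bladder of the same experiment that received PBS, called the sham tumour. These are 2 of the 9 arrays of the series, chosen by their titles, with 1 array on each side. The differences between them therefore have no replicate check and are given as descriptions. The 8.5 mM and 17 mM tumour arrays of the same experiment were set beside them to find what the lowest dose did not share with the higher doses.

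All mice were female C57BL/6J. Each tumour bladder was coated with poly-L-lysine on day 0 and then filled with MB49 cells, a mouse bladder carcinoma line. The dosed mice received alpha1-oleate into the bladder 5 times from day 3 to day 11, at 1.7, 8.5 or 17 mM, and the sham mice received PBS. Tumour bladders were taken on day 12. Experiment 1 also holds a healthy, tumour-free PBS bladder, and experiment 2 holds another healthy PBS bladder, another sham tumour and healthy bladders labelled 24 h and 7 d after 17 mM. The ages of the mice, and whether an array stands for 1 mouse or a pool, are not given by the labels. The tumours arose from 1 cell line, and each array measured the whole bladder, tumour and host tissue together.

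Alpha1-oleate is a complex of a peptide from the milk protein alpha-lactalbumin with the fatty acid oleate, known for killing tumour cells. The bladder is lined by urothelium, whose surface cells make uroplakins, over connective tissue and a thick wall of smooth muscle. Glucocorticoid hormones act through a nuclear receptor that binds DNA and switches on genes such as Tsc22d3, Fkbp5, Per1 and Sgk1 in many tissues. Neutrophils and monocytes are drawn into inflamed tissue by chemokines, while resident tissue macrophages carry scavenger receptors such as Cd163 and Lyve1.

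Values are log2 RMA intensities, so a difference of 1 is a 2-fold difference in signal. The medians of the arrays over all probe sets ran from 4.42 to 4.45 in experiment 1 and from 4.2 to 4.24 in experiment 2, and the 2 experiments had been normalized apart. Of 17097 genes measured, 11969 lay above the expression filter. Both bladders of the comparison read as bladder by the uroplakin Upk1b (sham tumour 9.10, 1.7 mM 9.94, healthy 12.31) and the smooth muscle actin Actg2 (sham tumour 11.35, 1.7 mM 11.37, healthy 11.91). Both carried the proliferation gene Mki67 far above the healthy bladder (sham tumour 9.64, 1.7 mM 9.32, healthy 3.72). The array labelled healthy, 24 h after 17 mM, stood above its healthy control in the mitosis list (median 1.79) and the macrophage list (median 2.34), and it enters no difference given below. The number of arrays limits the precision throughout. Nothing in the labels ties an array to an animal of its own, so p-values below measure only the spread between these samples, which may be technical.

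At 1.7 mM, 271 of the 11969 genes were at least 2-fold higher than in the sham tumour (2.26% of the genes tested) and 33 were at least 2-fold lower (0.276%), 2.54% in all. At least 4-fold differences were read for 17 genes above the sham tumour (0.142%) and 2 genes below it (0.0167%). The counts were larger at both other doses, with 1220 genes higher (10.2%) and 473 lower (3.95%) at 8.5 mM, and 1426 higher (11.9%) and 833 lower (6.96%) at 17 mM. The median difference of all genes at 1.7 mM was -0.01, with 47.8% of them above the sham tumour and 50.3% below it. The median size of the difference was 0.16. For scale, the difference between sham tumour and healthy bladder had a median gap of 0.18 between the 2 experiments, and for 196 genes (1.64%) that gap was 2-fold or more. In bulk tissue, fewer cells of a type and less RNA per cell cannot be told apart.

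Most of these differences were also present at the higher doses. Of the 271 higher genes, 216 were at least 2-fold above the sham tumour at all 3 doses (1.8% of genes tested), and of the 33 lower genes 26 were at least 2-fold below it at all 3 (0.217%). The 3 doses share the 1 sham array, so a sham value that is off by chance enters all 3 differences. Among the 216 shared higher genes, the difference was smaller at 1.7 mM than at both other doses for 197 and larger for 9. Among the 26 shared lower genes it was smaller for 18 and larger for 2. The remaining genes were either high at 1.7 mM only, described next, or lay between (22 higher and 7 lower).

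A group of 33 genes was high at the lowest dose only (0.276%), and no gene was low at that dose only. These genes were at least 2-fold above the sham tumour at 1.7 mM, at least 2-fold above both the 8.5 mM and the 17 mM tumour, and less than 0.5 above the sham tumour at both of those doses. By the same rule 0 genes were high or low only at 8.5 mM (0%), and 1 was high (0.00835%) and 9 low (0.0752%) only at 17 mM. Of the 33 genes, 31 were also at least 2-fold above the healthy bladder of experiment 1. The expression filter uses the mean over all arrays, so a gene can pass it through its 1.7 mM value alone. Itga10 and Gm19439 did so. Ap1s2, an adaptor protein of vesicle coats, lay just inside the limits with a difference of 1.02. Dtx4, a Deltex-family ubiquitin ligase, lay just outside, at 1.01 above the sham tumour but at 9.35 against 8.50 at 8.5 mM.

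Fam107a, an actin-binding protein, read 4.27 in the healthy bladder, 4.13 in the sham tumour, 7.03 at 1.7 mM, 4.37 at 8.5 mM and 4.34 at 17 mM. The 1.7 mM array stood alone, 2.90 above the sham tumour (7.46-fold), and all 3 probe sets of the gene were higher there. Hoga1, a mitochondrial aldolase of hydroxyproline breakdown, had the same shape, with 4.26, 4.39, 6.94, 4.39 and 4.33 in that order of arrays, a difference of 2.55 (5.86-fold). Arrdc2, an arrestin-domain protein, read 5.18, 5.23, 7.57, 4.68 and 4.82, a difference of 2.34. For these 3 genes the other 4 arrays of experiment 1 lay within 1 unit of each other, and both PBS bladders of experiment 2 read between 4.10 and 5.15.

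Tsc22d3, the glucocorticoid-induced leucine zipper protein, had a level of 9.06 in the healthy bladder, 8.75 in the sham tumour, 10.99 at 1.7 mM, 8.20 at 8.5 mM and 8.69 at 17 mM. The difference was 2.24 (4.72-fold), and 1.61 with all probe sets averaged. Its 3 probe sets were higher at 1.7 mM by 0.07 to 2.52, so 1 of them hardly changed. Sgk1, the serum- and glucocorticoid-regulated kinase that acts on sodium channels, read 9.07, 9.97, 11.55, 9.23 and 9.04 in the same order, 1.58 above the sham tumour. Per1, a repressor of the circadian clock, read 6.89, 6.29, 7.81, 5.88 and 6.31, a difference of 1.52. Ddit4, an inhibitor of mTORC1 growth signalling, read 8.67, 9.47, 10.97, 8.62 and 8.65, a difference of 1.5. In each of these 4 genes the 1.7 mM array was the highest of the 5, while the sham tumour was above the healthy bladder for Sgk1 and Ddit4 and below it for Tsc22d3 and Per1.

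A different shape was seen where the sham tumour itself was above the healthy bladder and the higher doses were nearer to healthy. Ankrd29 read 4.14 in the healthy bladder, 6.08 in the sham tumour, 7.93 at 1.7 mM, 4.5 at 8.5 mM and 4.35 at 17 mM. Cp, the copper-binding ferroxidase ceruloplasmin, read 5.48, 8.51, 9.84, 6.62 and 6.41. Fkbp5, a co-chaperone of steroid receptors, read 7.29, 9.26, 10.53, 7.79 and 7.92, and 2 of its 3 probe sets were higher at 1.7 mM. Mt3, a metallothionein, read 4.78, 8.0, 9.22, 6.50 and 6.01. These 4 genes were at least 2-fold above the sham tumour at the lowest dose and at least 2-fold below it at both higher doses, and no gene showed the reverse. In experiment 2 all 4 were also higher in the sham tumour than in the healthy bladder (Ankrd29 5.96 against 3.95, Cp 8.48 against 4.90, Fkbp5 8.94 against 6.83, Mt3 8.48 against 4.17). Against that second sham tumour, after all arrays were normalized together, the 1.7 mM array was 1.34 higher for Ankrd29 and 1.02 for Fkbp5, but 0.79 for Cp and 0.17 for Mt3.

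**Figure D1:**
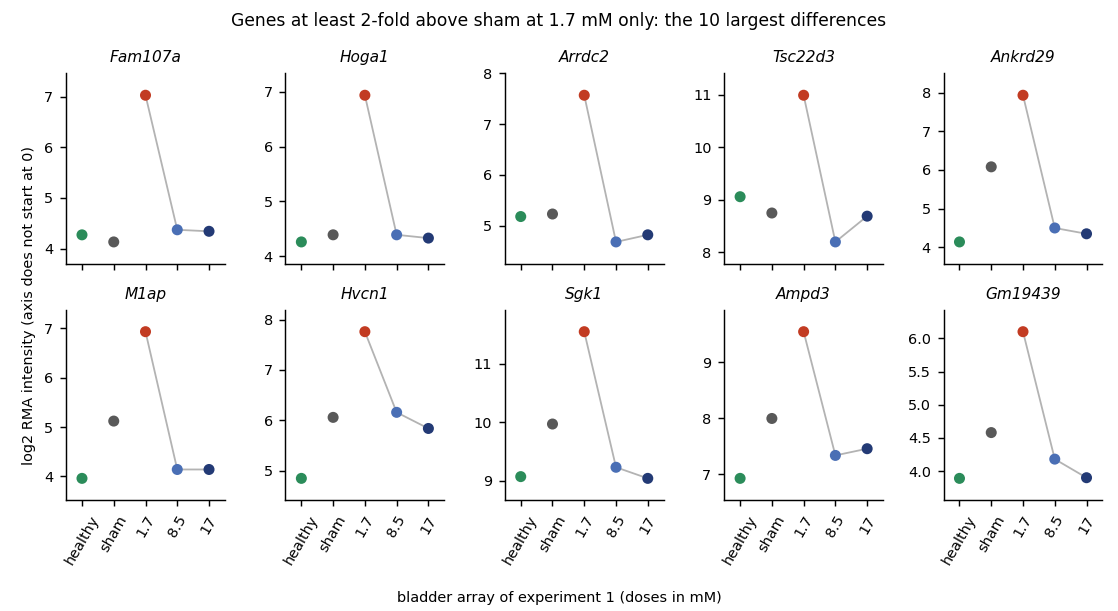
Levels of the 10 genes with the largest differences among those high at 1.7 mM only (level of at least 6 at that dose), in the 5 arrays of experiment 1, 1 point per array, on the log2 RMA scale with axes that do not start at 0. A grey line joins the 3 doses, and in each panel the 1.7 mM point is at least 1 unit above all the other points.

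The remaining members were spread over many functions. Hvcn1, a voltage-gated proton channel, read 4.85, 6.06, 7.76, 6.16 and 5.84 in the healthy, sham, 1.7 mM, 8.5 mM and 17 mM arrays. Ampd3, an AMP deaminase, read 6.93, 8.0, 9.55, 7.34 and 7.46. M1ap, a protein of meiosis, read 3.96, 5.12, 6.93, 4.14 and 4.14. Others included Lama3, a laminin chain of epithelial basement membrane (difference 1.41), Rgs1, a regulator of G-protein signalling in lymphocytes (1.40), Slc15a2, a peptide transporter (1.40), and Porcn, the acyltransferase that loads lipid onto Wnt proteins (1.24). Map3k6, a stress kinase, differed by 1.22, Cited2, a transcriptional co-regulator, by 1.21 and Vdr, the vitamin D receptor, by 1.05. The rest, Itga10 (2.07), Klhl30 (1.58), Gm19439 (1.52), Prune2 (1.51), Ctla2b (1.29), Sh3glb1 (1.28), Tob2 (1.26), Depdc7 (1.10), Adamtsl4 (1.05), Sec14l1 (1.04) and Epn2 (1.03), completed the 33. Of the 33 genes 12 had several probe sets, and for 9 of those all were higher at 1.7 mM. The exceptions were Fkbp5, Lama3 (1 of 2 probe sets) and Prune2 (3 of 4). Among the 9, the lowest probe set was only slightly higher for Tsc22d3 (0.07), Slc15a2 (0.08) and Tob2 (0.21).

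Glucocorticoid-responsive genes as a list lay above the sham tumour at 1.7 mM and below it at the higher doses. The median difference of the 14 members above the filter (of 16 listed, 15 measured) was 1.11 at 1.7 mM, -0.48 at 8.5 mM and -0.25 at 17 mM, beside -0.01 for all genes at 1.7 mM. Of the 14, 13 were above the sham tumour and 7 were at least 2-fold above it, of which 5 belong to the 33 genes above. Over all genes the shares at 1.7 mM were 47.8% above it and 2.26% at least 2-fold above it. The sham tumour differed from the healthy bladder in the same list by a median of 0.19 in experiment 1 and 0.31 in experiment 2. This list was written after values of these arrays had been seen, so its count is not independent evidence of its direction.

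Its members did not all behave alike. Pdk4, a kinase that restrains glucose oxidation, and Klf9, a zinc finger transcription factor, were high at every dose. Pdk4 read 8.46 in the healthy bladder, 3.97 in the sham tumour, 7.11 at 1.7 mM, 6.68 at 8.5 mM and 7.31 at 17 mM. Klf9 read 9.21, 7.06, 9.06, 9.05 and 9.63, and all 3 dosed tumours lay near the healthy level for that gene. Dusp1, a phosphatase of MAP kinases, differed from the sham tumour by 0.95 at 1.7 mM, -0.25 at 8.5 mM and 0.08 at 17 mM. The metallothionein Mt1 differed by 0.58, -0.23 and -0.45, and the EGF receptor inhibitor Errfi1 by 0.51, -0.60 and -0.73. Zbtb16 (0.51, 0.44 and 0.55) and Cebpd (0.32, 0.23 and 0.32) differed little between doses. Angptl4, an inhibitor of lipoprotein lipase, was below the sham tumour at all 3 doses (-0.68, -0.91 and -1.48).

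**Figure D2:**
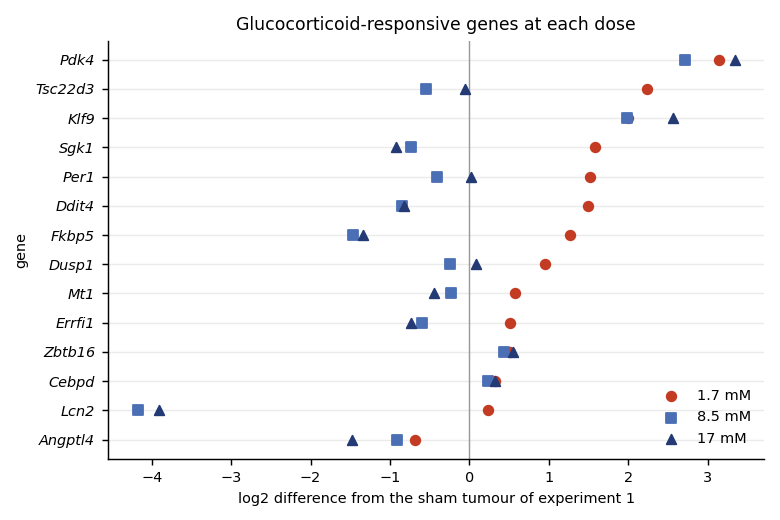
Difference from the sham tumour (log2, x axis) of the 14 glucocorticoid-responsive genes above the filter, 1 row per gene, at 1.7 mM (red circles), 8.5 mM (light blue squares) and 17 mM (dark blue triangles), 1 array each. Tsc22d3, Sgk1, Per1, Ddit4 and Fkbp5 have the red circle above 1 and both other symbols near or below 0, whereas Pdk4 and Klf9 have all 3 symbols to the right.

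The promoters of the 33 genes were searched for the palindrome GNACANNNTGTNC, the kind of sequence that steroid receptor dimers bind, which reads the same on both strands. RefSeq promoters (build GRCm38.p6, 250 bases before the start) were found for 26 of the 33, and 3 of them (11.5%) held the palindrome, against 119 of 27025 genes in the table (0.44%). The 3 genes were Fam107a, Sgk1 and Map3k6. A gene counted if any of its listed starts matched. The comparison took all genes of the promoter table, not only those above the expression filter from which the 33 came. The inner part of the palindrome, ACANNNTGT, which every full match also holds, was present in 5 of the 26 (19.2%, with Hoga1 and Ctla2b added) against 6.76% of all genes in that table. In the glucocorticoid list 2 of 13 promoters (15.4%) held the full palindrome, Sgk1 and Mt1. A match of letters is a description and not a binding site, and this search was added after the values were seen. The 3 promoters are printed to show where the palindrome lies, in capitals, 5' to 3' on the strand of the gene: 120 bases before the start of Fam107a (chr14:8309778-8310027, minus strand), 188 before that of Sgk1 (chr10:21993640-21993889, plus strand) and 181 before that of Map3k6 (chr4:133240568-133240817, plus strand).
Fam107a: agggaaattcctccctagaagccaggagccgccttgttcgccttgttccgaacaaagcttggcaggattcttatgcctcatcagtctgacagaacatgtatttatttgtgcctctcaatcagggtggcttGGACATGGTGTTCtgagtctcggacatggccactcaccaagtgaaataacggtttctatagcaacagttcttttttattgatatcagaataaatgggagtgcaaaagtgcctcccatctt
Sgk1: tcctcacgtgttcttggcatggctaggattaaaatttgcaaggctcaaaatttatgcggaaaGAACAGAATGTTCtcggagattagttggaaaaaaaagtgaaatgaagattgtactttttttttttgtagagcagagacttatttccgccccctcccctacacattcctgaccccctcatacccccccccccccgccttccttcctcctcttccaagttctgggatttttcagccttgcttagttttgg
Map3k6: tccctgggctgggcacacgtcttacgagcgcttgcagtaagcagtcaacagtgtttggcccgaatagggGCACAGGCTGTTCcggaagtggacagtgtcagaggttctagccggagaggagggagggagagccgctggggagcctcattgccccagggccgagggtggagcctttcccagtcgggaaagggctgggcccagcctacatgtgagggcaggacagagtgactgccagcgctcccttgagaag
Beside the palindromes GGACATGGTGTTC in Fam107a, GAACAGAATGTTC in Sgk1 and GCACAGGCTGTTC in Map3k6, the levels at 1.7 mM were 7.03, 11.55 and 6.96, and those in the sham tumour 4.13, 9.97 and 5.74.

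Most of the other large differences at 1.7 mM belonged to genes that were low in the sham tumour and high in the healthy bladder and in every dosed tumour. Pcp4, a calmodulin-binding protein of smooth muscle and neurons, read 9.85 in the healthy bladder, 5.05 in the sham tumour, 8.79 at 1.7 mM, 10.78 at 8.5 mM and 11.05 at 17 mM. It was 3.74 higher at 1.7 mM than in the sham tumour (13.36-fold). Fbxo32, a ubiquitin ligase of muscle breakdown, read 8.06, 5.46, 8.05, 7.67 and 8.27, so its level was about the same at the lowest as at the higher doses. The methyltransferase Inmt read 9.00, 5.07, 7.65, 8.93 and 9.60, and the flavin monooxygenase Fmo2 read 8.57, 4.88, 7.24, 8.57 and 9.09. For both, the lowest dose was part of the way between the sham tumour and the higher doses. Rbfox3, a splicing factor, differed by 2.26 and Pdk4, described above, by 3.14. With all probe sets averaged the differences were smaller for Fmo2 (1.61 in place of 2.36), Rbfox3 (1.61) and Fbxo32 (2.01 in place of 2.59). They were unchanged for Pcp4, Inmt and Pdk4.

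In 9 of the shared genes the 1.7 mM tumour was above both higher doses as well as the sham tumour. Tent5b, a poly(A) polymerase, read 6.65, 5.33, 7.85, 6.59 and 7.21 in the healthy, sham, 1.7 mM, 8.5 mM and 17 mM arrays. Trp53inp1, a stress-induced p53 cofactor, read 8.97, 6.89, 9.16, 7.94 and 8.25. Ppl, the desmosomal plakin periplakin, read 8.23, 6.50, 8.66, 7.51 and 7.65. The levels of these 3 genes at the lowest dose were close to or above that of the healthy bladder. The others were Lyve1, Cd163, Deptor, an mTOR inhibitor (1.90), the bile acid transporter family member Slc10a6 (1.71), Scnn1g, a sodium channel subunit of epithelia (1.53), and Tcp11l2 (1.46).

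**Figure D3:**
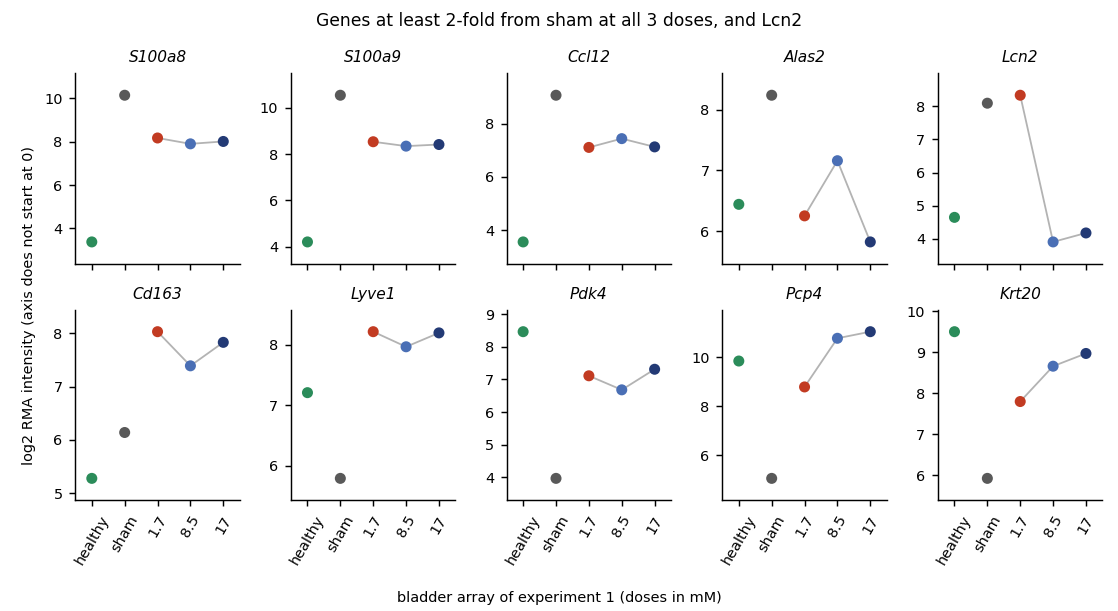
Levels of 9 genes at least 2-fold from the sham tumour at all 3 doses, and of Lcn2, in the 5 arrays of experiment 1, 1 point per array, on the log2 RMA scale with axes that do not start at 0. S100a8, S100a9, Ccl12, Cd163, Lyve1 and Pdk4 have similar levels at all 3 doses, Pcp4 and Krt20 are higher at the higher doses, and Lcn2 is near the sham level at 1.7 mM only.

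Transcripts of resident macrophages were higher at 1.7 mM. All 18 members of that list above the filter (of 22 listed) were above the sham tumour, against 47.8% of all genes. Their median difference was 0.60, and 3 were at least 2-fold higher, against 2.26% of all genes. The medians at 8.5 and 17 mM were 1.25 and 1.04. Lyve1, a hyaluronan receptor of perivascular macrophages and lymphatic vessels, read 7.21 in the healthy bladder, 5.79 in the sham tumour, 8.22 at 1.7 mM, 7.97 at 8.5 mM and 8.20 at 17 mM. Cd163, a scavenger receptor for haemoglobin, read 5.28, 6.14, 8.03, 7.39 and 7.83. The third was Igf1, a growth factor also made by stroma, which read 8.02, 8.43, 9.45, 9.68 and 9.80. So Lyve1 and Cd163 were as high at the lowest dose as at the others, whereas other members were not: Cbr2, a carbonyl reductase, differed by 0.45 at 1.7 mM and 2.35 at 17 mM, and Folr2, a folate receptor, by 0.51 and 1.12. Marco, a scavenger receptor outside the list, named after its values were seen, read 2.98, 5.12, 6.96, 5.52 and 5.65.

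General macrophage transcripts differed little. The list of 17 had a median of 0.09 with 11 members above and 6 below the sham tumour, none 2-fold, and C1qa, a complement subunit, read 10.68 in the sham tumour and 10.94 at 1.7 mM. The 12 activated macrophage genes had a median of -0.25 and 1 member at least 2-fold lower, Ero1a, an oxidase of protein folding (-1.05). The lymphatic endothelial list, which bears on Lyve1, had a median of 0.36 over 8 members, with Sema3d, a guidance cue, 1.23 above the sham tumour. Blood endothelial genes had a median of 0.38 over 20 members and mast cell genes 0.35 over 6, of which Cpa3, a mast cell protease, was 1.09 higher. The part of vessel or mast cell content in the macrophage values was not tested.

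Several neutrophil transcripts were lower at 1.7 mM than in the sham tumour of experiment 1, S100a8 and S100a9 by nearly as much as at the higher doses. S100a8, a subunit of calprotectin, read 3.38 in the healthy bladder, 10.14 in the sham tumour, 8.17 at 1.7 mM, 7.90 at 8.5 mM and 8.01 at 17 mM. Its partner S100a9 read 4.2, 10.54, 8.53, 8.34 and 8.41. Stfa2l1, a stefin protease inhibitor of neutrophils, had the largest difference below the sham tumour, -2.24, with levels of 4.45, 7.30, 5.06, 4.21 and 4.84. For these 3 genes the dosed tumours lay well below the sham tumour. The neutrophil list as a whole had a median of -0.51 over 13 members, 10 of them below the sham tumour and 3 at least 2-fold, with medians of -1.07 and -1.49 at 8.5 and 17 mM. Over all genes at 1.7 mM, 50.3% were below the sham tumour and 0.276% at least 2-fold. Against the sham tumour of experiment 2, after all arrays were normalized together, the list median at 1.7 mM was 0.10. Against the mean of both sham tumours it was -0.11. Its direction thus depended on the sham array used, and sham array and experiment cannot be told apart. In the same 2 settings Stfa2l1 differed by -0.54 and -1.34, whereas S100a8 (-1.63) and S100a9 (-1.71) remained more than 2-fold below the second sham tumour.

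Lcn2, an iron-binding protein made by neutrophils and by inflamed epithelium, did not follow them. It read 4.65 in the healthy bladder, 8.09 in the sham tumour, 8.33 at 1.7 mM, 3.91 at 8.5 mM and 4.18 at 17 mM. Its level at the lowest dose was that of the sham tumour, and both higher doses were below the healthy bladder. Lcn2 was named after these values were seen, so a test of the gap to the higher doses on the same arrays supports nothing further. The levels are given as a description.

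Of the 16 CC chemokine genes 10 were below the sham tumour, against 50.3% of all genes, with a median of -0.25. Against 0.276% of all genes, 3 of the 16 were at least 2-fold lower. These were the monocyte attractants Ccl12 (-1.96), Ccl7 (-1.42) and Ccl2 (-1.04). Ccl12 read 3.56, 9.07, 7.11, 7.44 and 7.13 in the healthy, sham, 1.7 mM, 8.5 mM and 17 mM arrays. In the acute cytokine list (14 members, median -0.30) the 3 genes at least 2-fold lower were Csf3, the granulocyte growth factor (-1.17), and the neutrophil attractants Cxcl2 (-1.10) and Cxcl1 (-1.03). Cxcl1 read 8.06 in the sham tumour, 7.03 at 1.7 mM, 5.95 at 8.5 mM and 5.85 at 17 mM. Others among the largest differences below the sham tumour were the antimicrobial lectin Reg3g (-1.61), the immune receptor Cd244a (-1.47), the glucose transporter Slc2a3 (-1.43), the myeloid gene Slfn4 (-1.42), the collagenase Mmp13 (-1.39) and the growth factor Fgf15 (-1.27). With all probe sets averaged, Slc2a3 differed by -0.89, less than 2-fold, while the others stayed at least 2-fold lower. Against the sham tumour of experiment 2, where Reg3g read only 4.10, the 1.7 mM array was 0.92 higher for that gene. The acute cytokine median was 0.19 against that sham tumour. Both directions thus depended on the sham array used, and sham array and experiment cannot be told apart. Ccl7 (-0.47), Ccl2 (-0.64), Csf3 (-0.34), Cxcl2 (-0.65), Cxcl1 (-0.87), Mmp13 (-0.55) and Slfn4 (-0.78) were less than 2-fold from that sham tumour. Ccl12 differed by -1.74. With the experiment as block, limma estimated -1.02 for Reg3g and -1.76 for Ccl12. The estimates for the others were -1.16 (Ccl7), -0.81 (Ccl2), -1.035 (Csf3), -0.955 (Cxcl2), -0.93 (Cxcl1), -1.32 (Mmp13) and -1.27 (Slfn4).

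Some erythroid transcripts were lower too. Alas2, the haem synthesis enzyme of red cells, read 6.44 in the healthy bladder, 8.24 in the sham tumour, 6.25 at 1.7 mM, 7.16 at 8.5 mM and 5.82 at 17 mM. In experiment 2 the sham tumour read 8.80 against 6.08 in the healthy bladder. The 10 erythroid genes had a median of -0.55 at 1.7 mM, -0.22 at 8.5 mM and -0.55 at 17 mM. At 1.7 mM 3 of them were at least 2-fold lower, against 0.276% of all genes. Besides Alas2 these were the anion exchanger Slc4a1 (-1.65) and Bpgm (-1.03). The median at 1.7 mM was -0.27 with all probe sets of a gene averaged and -0.11 with no expression filter. The haemoglobin genes Hba-a1 (-0.50) and Hbb-b2 (-0.61) differed by less. Red cells in a bladder sample can come from blood, and how much of this followed blood content was not tested.

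The tissue lists that set the higher doses apart from the sham tumour had smaller medians at 1.7 mM. Some of their members were at least 2-fold higher at that dose, as were 2.26% of all genes, and 47.8% of all genes were above the sham tumour. Of the 26 urothelial genes 25 were above the sham tumour, with a median of 0.68 and 3 at least 2-fold higher, beside medians of 2.12 and 2.34 at 8.5 and 17 mM. Krt20, a keratin of surface urothelium, was the furthest, with 9.5 in the healthy bladder, 5.93 in the sham tumour, 7.80 at 1.7 mM, 8.66 at 8.5 mM and 8.97 at 17 mM. The others were Krt7 (1.09) and the tight junction gene Cldn4 (1.05). The uroplakin Upk2 read 11.22, 7.80, 8.33, 10.40 and 10.56, nearer to the sham tumour than to the higher doses.

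All 19 smooth muscle genes were above the sham tumour, as were 47.8% of all genes, with a median of 0.65 against 2.29 and 2.62. Against 2.26% of all genes, 7 of the 19 were at least 2-fold higher. Besides Pcp4 they included the ATP receptor P2rx1 (1.55), Synpo2, an actin-binding protein (1.38), and Pgm5, an adhesion plaque protein (1.18). Acta2, the smooth muscle actin, read 11.69 in the sham tumour, 12.04 at 1.7 mM, 12.75 at 8.5 mM and 12.92 at 17 mM. Of the 22 collagen and fibroblast genes 17 were above the sham tumour, with a median of 0.41 against 1.33 and 1.29. The 6 that were at least 2-fold higher included Clec3b, a stromal plasminogen-binding protein (1.56), Scara5, a ferritin receptor (1.49), and the proteoglycans Lum (1.47) and Dcn (1.04). Adipose genes had a median of 0.22 over 10 members against 1.35 and 1.45, with the lipid droplet gene Plin4 at 1.49.

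**Figure D4:**
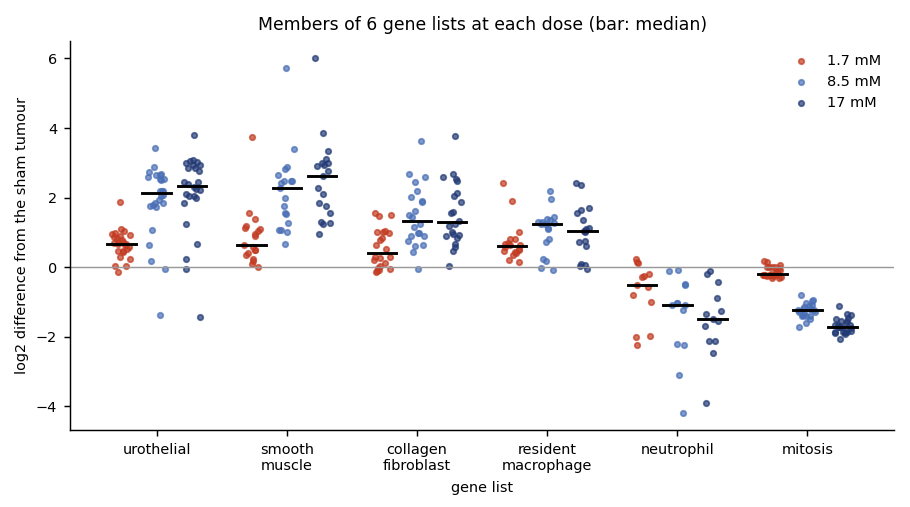
Difference from the sham tumour (log2, y axis) of each member of 6 gene lists at 1.7, 8.5 and 17 mM, 1 point per gene with small horizontal scatter and a black bar at the median of the list. The urothelial, smooth muscle and collagen medians are 0.68, 0.65 and 0.41 at 1.7 mM and above 1 at both higher doses, and the mitosis median is -0.19 at 1.7 mM against -1.22 and -1.71.

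Proliferation transcripts were near the sham level at 1.7 mM. The 23 mitosis genes had a median of -0.19, none was 2-fold different, and the values ran from -0.32 to 0.17. At 8.5 and 17 mM the medians were -1.22 and -1.71, with 20 and 23 of the 23 at least 2-fold lower. Top2a, the topoisomerase of dividing cells, read 4.43 in the healthy bladder, 10.59 in the sham tumour, 10.27 at 1.7 mM, 9.30 at 8.5 mM and 8.93 at 17 mM. The 27 DNA replication genes had a median of -0.22 against -0.94 and -1.33. In that list Rrm2, the ribonucleotide reductase subunit, was above the sham tumour at 1.7 mM (10.65 against 9.84) and below it at both other doses (8.64 and 8.27).

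Liver-type secreted proteins, high at the higher doses, were at the sham level at 1.7 mM. Alb, serum albumin, read 4.57 in the healthy bladder, 4.04 in the sham tumour, 3.87 at 1.7 mM, 8.83 at 8.5 mM and 10.15 at 17 mM. The 15 liver genes above the filter had a median of -0.01 at 1.7 mM, 1.92 at 8.5 mM and 2.80 at 17 mM. The exception at 1.7 mM was Rbp4, the retinol carrier, at 1.28. In both the sham and the 1.7 mM tumour Alb lay below the filter level of 4.16, near the floor. Genes such as Alb passed the filter only through arrays where they were high, so the direction of the list at the higher doses was fixed in advance. The 6 kidney genes had a median of -0.08. Xist, the noncoding RNA of the inactive X chromosome of female cells, read 10.32, 9.15, 9.26, 9.95 and 10.21 in the healthy, sham, 1.7 mM, 8.5 mM and 17 mM arrays, and so was 0.11 above the sham tumour at the lowest dose.

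Cytotoxic and T cell transcripts were slightly above the sham tumour at 1.7 mM and below it at 17 mM. The 14 granzyme and NK cell genes had medians of 0.24, -0.12 and -0.85 at the 3 doses. Gzma, a granule protease, read 4.47, 7.44, 8.43, 7.92 and 6.55 in the same order of arrays, and Gzmd read 2.42, 7.87, 8.73, 7.66 and 3.89. Of the 8 T cell genes 7 were above the sham tumour (median 0.13), against 47.8% of all genes, with the receptor chain Cd3g at 0.32. The 21 interferon gamma genes had medians of -0.17, -0.38 and -1.0. At 1.7 mM 18 were below the sham tumour, against 50.3% of all genes, and none was 2-fold lower. The 18 antiviral genes had a median of -0.42 against -0.37 and -0.91, with Rsad2, the antiviral enzyme viperin, at -1.25, and the median at 1.7 mM was -0.09 against the sham tumour of experiment 2. The 13 dendritic and class II genes had a median of -0.06, and the 2 B cell genes above the filter one of -0.15.

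Among the stress and metabolic lists the medians at 1.7 mM lay between -0.40 and 0.25. Sterol synthesis genes had the lowest, -0.40 over 15 members with 13 below the sham tumour, against 50.3% of all genes. The medians of that list at 8.5 and 17 mM were -0.31 and -0.18. Its largest difference was in Cyp51, a demethylase of the pathway (-0.75). Hypoxia and glycolysis genes had a median of -0.33 over 21 members, with the carbonic anhydrase Car9 at -0.95 and the glucose transporter Slc2a1 at -0.94, although Ddit4, also in that list, was 1.5 higher. Integrated stress response genes had a median of -0.25 over 18 members with Aldh1l2, a mitochondrial folate enzyme, at -1.0, against -0.89 and -0.87 at the higher doses. The unfolded protein response median was -0.19 over 19 members, and Herpud1, which serves endoplasmic reticulum degradation, was 1.25 higher. The heat shock median was -0.18 over 12 members, with Hspa1b at -0.80, and the ERK feedback median -0.06 over 18, with Spry1, a growth factor signalling inhibitor, at 1.04.

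Circadian genes had a median of 0.34 over 15 members, and 4 were at least 2-fold higher at 1.7 mM, against 2.26% of all genes. Besides Per1 these were the output factors Dbp (1.35) and Tef (1.09) and the repressor Nr1d2 (1.12). Dbp read 8.62 in the healthy bladder, 4.63 in the sham tumour, 5.98 at 1.7 mM, 6.75 at 8.5 mM and 8.24 at 17 mM, while Per1 was high at the lowest dose alone. The hour of day at which the bladders were taken is not known here. The p53 target list had a median of 0.12 over 16 members, with Trp53inp1 at 2.27 and the sestrin Sesn1 at 1.33, while Cdkn1a, the cell cycle inhibitor, differed by 0.03. The NRF2 and glutathione list had a median of 0.10 over 16 members, with Gclc, the rate-limiting enzyme of glutathione synthesis, at 1.35, the quinone reductase Nqo1 at 1.23 and Gstm2 at 1.16. The fatty acid oxidation median was 0.25 over 19 members, and Acaa1b, a peroxisomal thiolase, was 1.54 higher.

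Matrix and epithelial lists were mixed. The metalloprotease and TIMP list had a median of 0.16 over 14 members, with Adamts1 (1.49) and Mmp19 (1.03) higher and Mmp13 (-1.39) and the macrophage elastase Mmp12 (-1.16) lower. The plasminogen and serpin list had a median of -0.15 over 8 members, with Thbd, thrombomodulin, at 1.01, and the matricellular list 0.30 over 11, with Sparcl1 at 1.25. Basal epithelial genes had a median of 0.43 over 15 members, against 0.44 and 0.43 at the higher doses, with Lama3 at 1.41 and Perp, a desmosome protein, at 1.14. The squamous median was 0.25 over 19 members, with Sprr2f, an envelope protein, at 1.10. The striated muscle median was 0.10 over 10 members, with the creatine kinase Ckm at 1.46, and the nerve median 0.10 over 5, with Uchl1 at 1.34 and the myelin protein Mbp at 1.31.

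**Figure D5:**
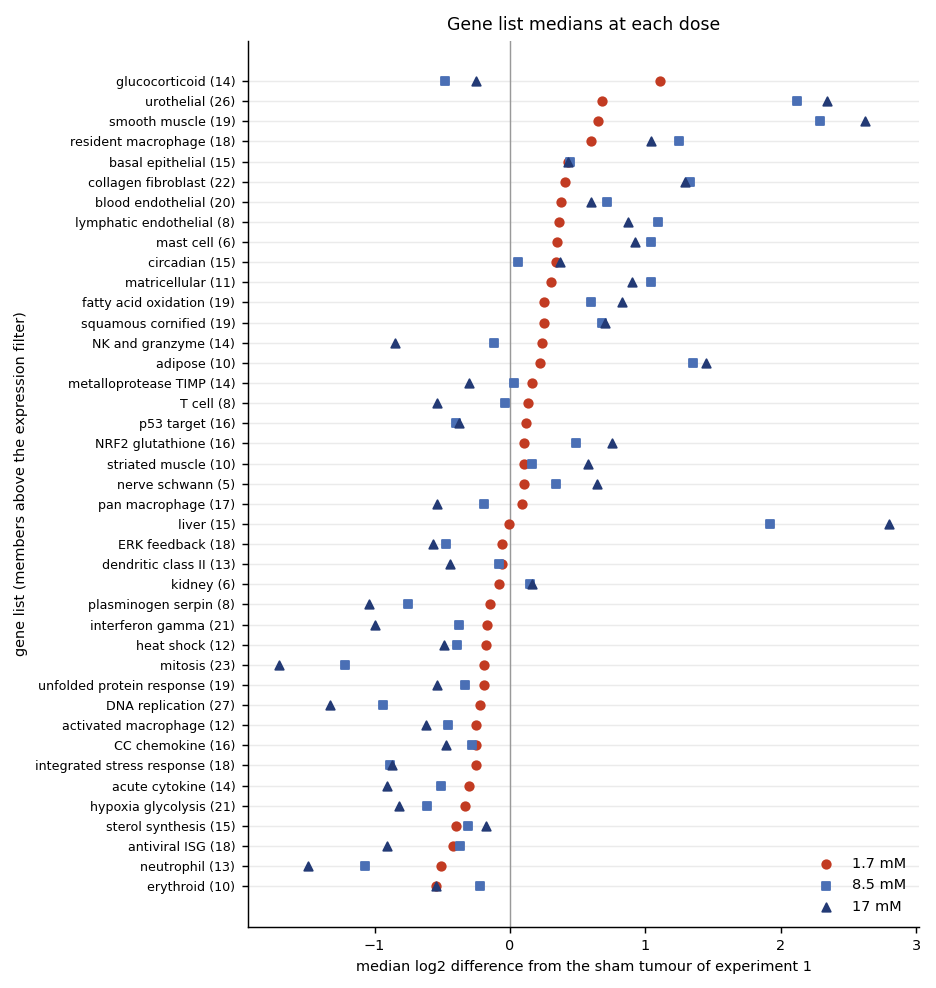
Median difference from the sham tumour (log2, x axis) of 41 gene lists (number of members in brackets, 3 or more each) at 1.7 mM (red circles), 8.5 mM (light blue squares) and 17 mM (dark blue triangles), ordered by the value at 1.7 mM. The glucocorticoid list is the furthest to the right at 1.7 mM, at 1.11, with both other symbols below 0, and the urothelial, smooth muscle and liver lists have their blue symbols far to the right of the red one. Liver genes such as Alb passed the expression filter only through arrays where they were high, so the direction of that list was fixed in advance.

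The lone 1.7 mM array was also tested against the sham tumours with limma, which takes its spread from the PBS arrays, healthy and tumour, and so assumes that a treated bladder varies as they do. With the experiment as a block, limma with Benjamini-Hochberg adjustment called 0 of the 11969 genes (0%). Without the block it called 36 genes, 35 higher and 1 lower. Leaving out the sham tumour of experiment 1 turned those 36 into 212, leaving out that of experiment 2 into 7, and leaving out either healthy PBS array into 26. Those without the block were led by Pcp4 (estimate 4.51), Pdk4 (3.54) and Lyve1 (2.98), and the single lower gene was Alas2 (-2.27). Every one had the same standard error, 0.54, so that fit ranked genes by the size of the difference alone. It also ignored the experiment, although the 2 experiments had been normalized apart.

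Set against the mean of the 8.5 and 17 mM tumours, a contrast added after the values were seen, the 1.7 mM array was higher for 381 genes (3.18%) and lower for 731 (6.11%) at an adjusted p under 0.05 by limma. The smallest adjusted p was 0.0399. This contrast takes its error from the PBS arrays as well, and without the block it called 179 genes in place of 1112 (121 without either healthy PBS array, 294 without either sham tumour). Among the higher genes were 32 of the 33 above, all but Adamtsl4 (adjusted p = 0.0784), but those genes were chosen on this difference and the count supports nothing further. At 1.7 mM the list medians against the 8.5 and 17 mM tumours were 1.12 and 1.6 (mitosis) and 0.75 and 1.1 (replication). They were -1.33 and -1.59 (urothelial), -1.26 and -1.61 (smooth muscle) and -1.87 and -2.74 (liver). In the glucocorticoid list they were 1.16 and 1.13. The lists were written with values of these arrays known. Liver genes such as Alb (3.87 at 1.7 mM, 10.15 at 17 mM) passed the expression filter only through arrays where they were high. The direction of that list was therefore fixed in advance.

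The arrays of experiment 1 differed in how often 1 of them stood alone, by at least 2-fold from all 4 others. The 1.7 mM tumour stood above all others in 32 genes (0.267%), 31 of them among the 33, and below all others in 0 (0%). The 8.5 mM tumour did so in 0 and 0 genes, and the 17 mM tumour in 7 (0.0585%) and 0. The sham tumour stood above all others in 26 genes (0.217%) and below in 187 (1.56%), and the healthy bladder in 263 (2.2%) and 740 (6.18%). Every difference from the sham tumour uses that 1 array. Within experiment 1, what was particular to it and what sham tumours share cannot be told apart.

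Experiment 2, which entered none of these differences, showed where the genes stand in a separate sham tumour. Of the 271 genes higher at 1.7 mM, 204 were at least 2-fold lower in that sham tumour than in its healthy control, against 15.1% of all genes, and 15 were at least 2-fold higher. Of the 33 lower genes, 25 were at least 2-fold higher there than in the healthy control, against 14.1% of all genes, and 0 were lower. Of the 33 genes high at 1.7 mM only, 0 were lower and 12 higher in that tumour. Their rule leaves out the 216 genes raised at all 3 doses, so this contrast with the 271 may follow from how they were chosen. After all arrays were normalized together, 168 of the 271 higher genes, 19 of the 33 lower genes and 20 of the 33 genes high at 1.7 mM only were at least 2-fold from both sham tumours. Among the 33, the difference from the second sham tumour was 0.88 for Ddit4, 0.77 for Per1, 0.47 for Sec14l1, 0.45 for Tob2 and 0.08 for Adamtsl4. In direction alone, 270, 32 and 33 of them lay on the same side of the second sham tumour. The 1.7 mM array on which these genes were chosen enters both differences, so these counts are no independent repeat. The shares over all genes were not computed.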

How the data were processed

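Deposited log2 intensities, made by RMA per the submitters' processing notes (which name Transcriptome Analysis Console, version 4.0.1.36), were taken for 45077 probe sets on 9 Affymetrix mouse arrays. Per the labels' protocols, RNA from frozen, pulverised bladders was purified on columns and 100 ng was labelled. For the array annotation, no genome build is stated in the sources used here.

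The 2 experiments had been normalized apart: sorted values differed by 0.329 between them and by 0.022 within. Of the probe sets, 28898 named 1 gene, 551 several and 15588 none, and 40 were controls; 28689 were matched to the RefSeq gene table by Entrez number. Each gene was represented by its probe set with the highest mean (7180 genes had several). The lowest 30% of genes (below 4.16) were left out. Detection calls were not used.

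Differences are plain log2 differences. Limma 3.58.1 (lmFit and eBayes, R 4.3.3) was fitted on all 9 arrays in 7 groups with the experiment as block, leaving 1 residual and 2.23 prior degrees of freedom. The block was used because the labels number the experiments, and same-numbered PBS arrays deviated together (correlation 0.647). The fit was tested on simulated data. Other steps ran in Python 3.11.15 (matplotlib 3.10.9, pandas 2.3.3, numpy 2.4.6).

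Named genes are the 12 largest increases and 12 largest decreases at 1.7 mM, the 10 largest among genes high at 1.7 mM only (level at least 6), up to 4 members of each of 43 lists by size of difference, and the first 2 of each list; others were named after their values were seen. The lists hold 815 symbols, 714 measured and 613 above the filter. Members and lists were chosen with earlier results of these data known. Alternatives were other control arrays, normalizations, filters, folds and probe set rules, no block, a variance trend, fewer samples in the fit, and leaving out each PBS array.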

Additional observations from a re-analysis of the deposited data

Results flagged for a closer look

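A set of 4 genes read in opposite directions at the lowest and at both higher doses. Ankrd29 (1.85 above the sham tumour at 1.7 mM), Cp (1.33), Fkbp5 (1.27) and Mt3 (1.22) were each at least 2-fold below the same sham tumour at 8.5 and 17 mM. They stand out because each array of one kind lay above the sham level and each of the other below it. The 3 doses share 1 sham array, and the opposite direction at the 2 sides was not tested as such. Set directly against the mean of the higher doses, the 1.7 mM array was 3.505 higher for Ankrd29 and 3.325 for Cp. For Fkbp5 it was 2.675 higher and for Mt3 2.965. The genes were chosen on these same arrays, so a large gap was fixed in advance and supports nothing further. Against the sham tumour of experiment 2, after all arrays were normalized together, the 1.7 mM array was 1.34 higher for Ankrd29, 1.02 for Fkbp5, 0.79 for Cp and 0.17 for Mt3.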

How the results depend on the processing

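Each value against the sham tumour rests on 1 array a side, and no alternative adds a treated replicate. The count of genes at least 2-fold higher at 1.7 mM (271) became 600 with the sham tumour of experiment 2, 810 at 1.5-fold and 37 at 3-fold. The count lower (33) became 215, 199 and 7 under the same settings. Genes high at 1.7 mM only (33) became 18 with the expression filter raised to the median and 8 at 3-fold, and stayed within 1.5 times under the other settings tried. With the sham tumour of experiment 2 they numbered 34, of which 19 were among the 33, and with the mean of both sham tumours 26 of the 33 remained. Genes low at 1.7 mM only (0) became 2 with the sham tumour of experiment 2. Limma against the sham tumours called 36 genes with no replicate block in place of 0, and without the block 7 (no sham tumour of experiment 2) to 212 (no sham tumour of experiment 1) when a PBS array was left out, since the block then leaves no residual degree of freedom. The contrast with the higher doses (1112 genes) gave 179 without the block, 2660 with all arrays normalized together, 488 with no filter and 121 to 294 with a PBS array left out. Reg3g turned from -1.61 to 0.92 with the sham tumour of experiment 2; the other 30 of 31 genes tried kept their sign throughout. Of 41 list medians 32 kept their sign, and 9 did not. With the sham tumour of experiment 2 the medians turned to 0.19 (acute cytokine), 0.10 (neutrophil), 0.09 (dendritic), 0.02 (mitosis), 0.02 (plasminogen) and -0.05 (nerve). With no filter they turned to -0.08 (squamous) and -0.02 (striated muscle), and the liver median reached 0.32 with the filter raised. The glucocorticoid median ran from 0.80 to 1.38. The causes of these shifts were not tested.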
